A study of Canis lupus familiaris with 48 samples.

Results

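The genes described here lie on dog chromosome 3, between 56729184 and 57464239 of the CanFam3.1 genome build, a stretch of 735 kb. The stretch was selected on earlier results of these same data, in which its genes stood higher after NaCl and after raffinose than in control. Its members are the annotated genes that lie wholly inside these limits and reach a mean of at least 1 read per M reads of a library (CPM, counts per M) in any of the 4 groups. These are 8 of the 32704 genes in the count table. All 8 were among the 12654 genes with enough reads to be tested. Because the 2 comparisons of NaCl and raffinose with control chose the stretch, their values are given below as a description, with no test.

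RNA came from MDCK I cells, an established epithelial line from dog kidney, that were cultured for 144 h. During the last 24 h the cells were kept in regular medium at 300 mOsm (control) or in medium to which 200 mOsm of NaCl, raffinose or urea had been added, 500 mOsm in all. Each of the 4 groups holds 12 libraries, 1 at each of 12 cell passage labels from 1 to 19, so the 48 libraries are passages of a single line. The 4 libraries of a passage label came from cultures in different media. The sources used here do not say whether those cultures were started from 1 parent culture. The p-values therefore measure the spread between these libraries. Libraries held from 3.92 to 16.16 M reads counted to genes, with a median of 10.51 M.

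NaCl and raffinose stay largely outside the cell, so that adding them to the medium draws water out and shrinks it, whereas urea crosses the membrane and raises osmolality with little lasting change of volume. Kidney epithelial cells are known to answer the loss of water by switching on genes through the transcription factor NFAT5 (TonEBP), among them transporters and enzymes that gather organic osmolytes, and to answer urea with a partly separate programme. Genes next to each other on a chromosome can share regulatory DNA or an open stretch of chromatin, and they can also respond independently of each other. The files pair none of the 32704 identifiers with a gene symbol, so what the 8 genes encode is not given here and they are described by position, in order along the chromosome.

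Of the 8 genes, 6 are annotated on the minus strand and 2, ENSCAFG00000030460 and ENSCAFG00000013979, on the plus strand. Numbers of exons are the exon entries of the annotation, which were not checked for repeats between transcripts. ENSCAFG00000013863 opens the stretch (56729184 to 56786497, 28 exons, 4464 exon bases). It is followed after 75.2 kb by the short ENSCAFG00000036663 (56861677 to 56862605, 2 exons, 340 bases), and then by ENSCAFG00000029013 (56881339 to 56887105, 2 exons, 1699 bases) and the single-exon ENSCAFG00000030460 (56929737 to 56930714, 978 bases). ENSCAFG00000013922 has the widest span, 112 kb (57008883 to 57120506, 19 exons, 2154 bases). Beyond a gap of 180 kb come ENSCAFG00000013958 (57300583 to 57326453, 15 exons, 1257 bases) and ENSCAFG00000013972 (57341557 to 57397234, 6 exons, 1750 bases). ENSCAFG00000013979 closes the stretch (57451365 to 57464239, 3 exons, 1690 bases). Counting ignored the strand of the reads, but none of the 8 spans overlaps another annotated gene on either strand.

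**Figure D1:**
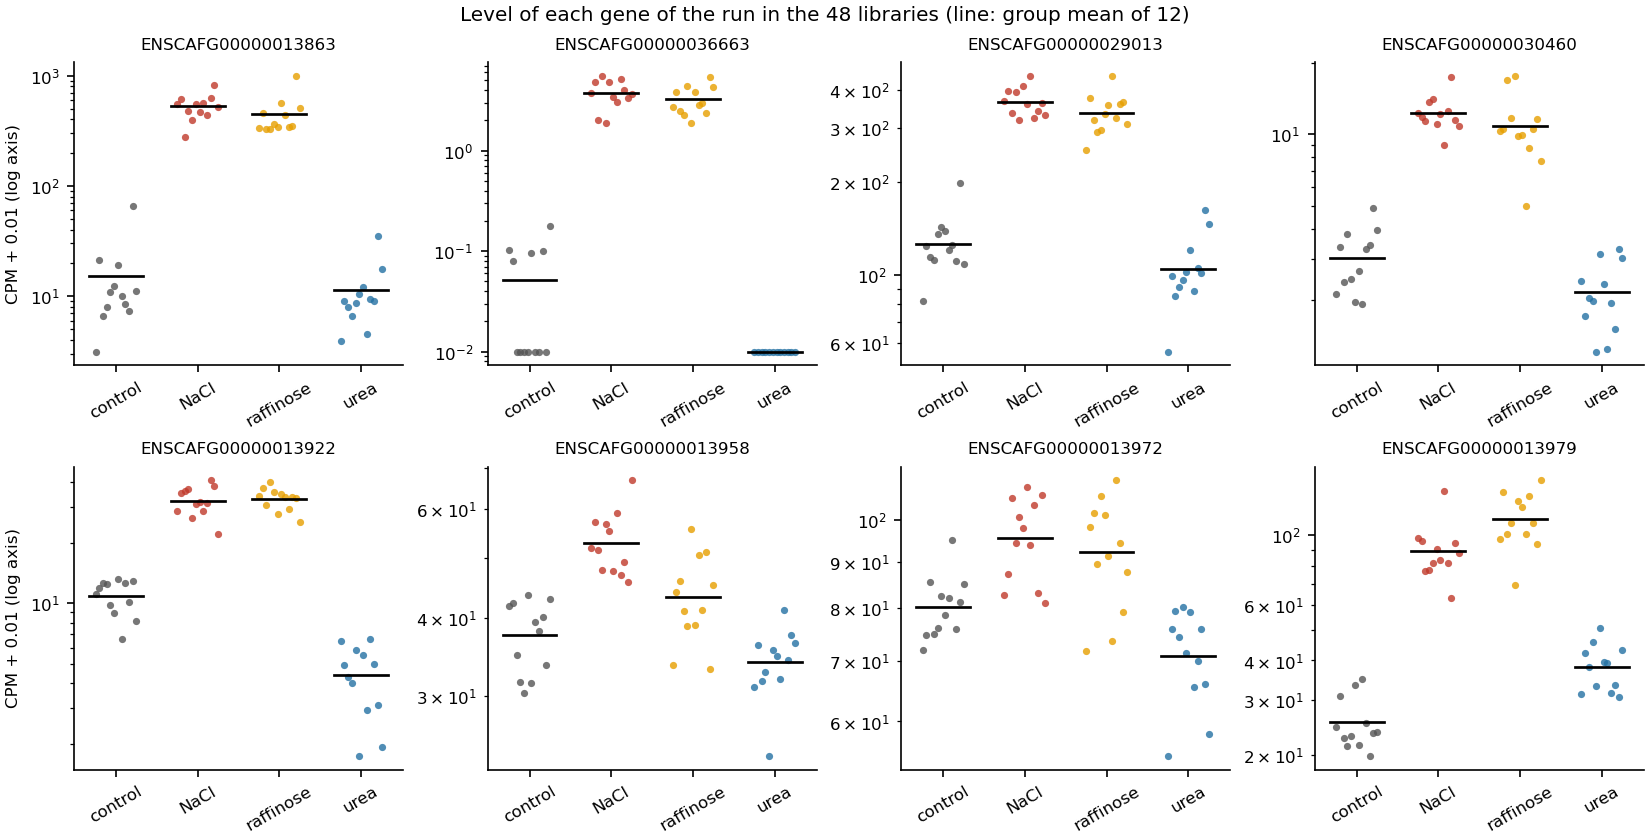
Each panel plots 1 gene of the run, with CPM plus 0.01 on a log axis and a point for each of the 48 libraries, ordered by passage within its group. Black lines are means of 12 libraries. In 7 of the 8 panels all NaCl points lie above all control points, ENSCAFG00000013972 being the exception, and ENSCAFG00000036663 has no read in any urea library.

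The 2 genes at the left end had the highest log2 fold changes of the run. ENSCAFG00000013863 had 3.13 CPM in its lowest control library, a median of 10.4 and 65.4 in its highest, against 279.2, 533.9 and 829.1 after NaCl and 324.2, 354.3 and 990.3 after raffinose. After urea the lowest, median and highest libraries had 3.91, 9.09 and 35.4 CPM. Every NaCl and raffinose library thus stood above every control and urea library, while control and urea overlapped over most of their range. The means were 15.3 ± 16.6 CPM in control, 526.8 ± 136.7 with NaCl, 444.2 ± 189.9 with raffinose and 11.2 ± 8.4 with urea (SD, n = 12 each). The log2 fold changes against control were 5.08 ± 0.34 (SE) for NaCl and 4.83 ± 0.33 for raffinose, about 33.8-fold and 28.5-fold, ranks 44 and 71 from the top of the 12654 tested genes. From passage to passage the difference between NaCl and control ran from 3.66 to 7.39 log2 units, the widest range of any member.

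ENSCAFG00000036663 was close to silent in 2 of the groups. Over the 12 control libraries it had 7 reads in all, in 5 libraries, and over the 12 urea libraries it had 0 reads. After NaCl it had between 1.87 and 5.50 CPM with a median of 3.68, and after raffinose between 1.85 and 5.43 with a median of 2.88, with reads in all 24 libraries. Its groups did not overlap between control and either of these solutes. The log2 fold changes against control were 5.94 for NaCl and 5.75 for raffinose, on a base of those 7 reads. With so few control reads, the SEs of the fit (0.33 and 0.34) are not a reliable measure of their error. In fits that left out a passage the values ran from 5.79 to 6.4 for NaCl and from 5.52 to 6.16 for raffinose. Both were highest without passage 19, which held 3 of the 7 control reads. Against urea, with the limit of 3 reads that a count of 0 over the group allows, NaCl was at least 159-fold higher and raffinose at least 140-fold higher. The gene had at most 71 reads in any library, and such limits cover only the counting error of the urea libraries.

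ENSCAFG00000029013 was well expressed in every group and higher by less than 3-fold after NaCl and raffinose. It had 81.9, 122.1 and 198.1 CPM in the lowest, median and highest control library, 320, 360.2 and 442.1 after NaCl, and 255.5, 328.5 and 443.5 after raffinose. After urea it had 56.1, 99.7 and 162.6 CPM, so that the urea libraries lay within and below the control range. The log2 fold changes were 1.54 ± 0.11 for NaCl and 1.41 ± 0.11 for raffinose, and both solutes were above control at all 12 passages.

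ENSCAFG00000030460, the single-exon gene, was low throughout, with as few as 5 reads in a library. Its lowest, median and highest libraries had 1.92, 2.96 and 4.87 CPM in control and 1.21, 2.02 and 3.29 after urea. After NaCl they had 8.98, 11.9 and 17.5 CPM and after raffinose 4.99, 10.4 and 17.6, so the lowest raffinose library (passage 13) stood only just above the highest control library (passage 17). The log2 fold changes against control were 2.01 ± 0.16 and 1.82 ± 0.16.

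ENSCAFG00000013922 is the member in which urea stood farthest below control, apart from the nearly silent ENSCAFG00000036663. Its lowest, median and highest control libraries had 6.58, 11.5 and 13.2 CPM, against 22.2, 31.7 and 40.9 after NaCl and 25.3, 33.7 and 40.1 after raffinose. After urea it had 1.73, 4.60 and 6.64 CPM, so that only the top of the urea range met the bottom of the control range. The log2 fold changes against control were 1.58 ± 0.13 for NaCl and 1.61 ± 0.13 for raffinose.

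The next 2 genes moved far less. ENSCAFG00000013958 had a mean of 37.5 ± 4.9 CPM in control, 53.03 ± 6.27 with NaCl, 43.3 ± 6.9 with raffinose and 33.9 ± 4.3 with urea (SD, n = 12 each), with log2 fold changes of 0.50 ± 0.08 and 0.21 ± 0.08 for NaCl and raffinose. Its NaCl libraries (45.8 to 66.9 CPM) lay above all control libraries (30.3 to 43.6 CPM), whereas its raffinose libraries (33.1 to 55.8 CPM) overlapped them. ENSCAFG00000013972 had 80.2 ± 6.4, 95.5 ± 10.0, 92.1 ± 12.5 and 70.9 ± 8.3 CPM in the same order, with log2 fold changes of 0.25 ± 0.07 and 0.20 ± 0.07, and both solutes overlapped control. These small values depend on how libraries are scaled. With library totals alone, which put the median of all tested genes at -0.19 for NaCl and -0.25 for raffinose in place of -0.02 for both, the raffinose values of the 2 genes turned to -0.02 and -0.03 and the NaCl value of ENSCAFG00000013972 fell to 0.08.

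ENSCAFG00000013979, at the right end, was the member in which raffinose stood farthest above NaCl and in which urea, too, was above control. Its lowest, median and highest libraries had 19.9, 23.6 and 34.9 CPM in control, 63.2, 85.6 and 138.3 with NaCl, 69.8, 109.6 and 149.8 with raffinose and 30.6, 38.8 and 50.6 with urea. The NaCl and raffinose ranges lay wholly above those of control and urea, and the urea range overlapped only the upper control libraries. The log2 fold changes against control were 1.81 ± 0.11 for NaCl and 2.15 ± 0.11 for raffinose.

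Counted together, all 8 members had a log2 fold change above 0 for NaCl and for raffinose, where 48.5% and 49% of all tested genes did, and 6 of 8 reached at least 2-fold in each case, against 9.82% and 12.1% of all tested genes. The NaCl libraries lay wholly above the control libraries in 7 members (13.2% of tested genes) and the raffinose libraries in 6 (14.3%). Nothing is read from these shares, since the stretch was selected on these comparisons. The median over the members was 1.69 for NaCl (from 0.25 to 5.94) and 1.71 for raffinose (from 0.20 to 5.75). Set against urea in place of control, the same NaCl and raffinose libraries gave medians of 2.14 and 1.99, also with ENSCAFG00000036663 at its lower bound. There the NaCl libraries lay wholly above the urea libraries in all 8 members (13.6% of tested genes) and the raffinose libraries in 6 (14.2%), the exceptions being ENSCAFG00000013958 and ENSCAFG00000013972.

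**Figure D2:**
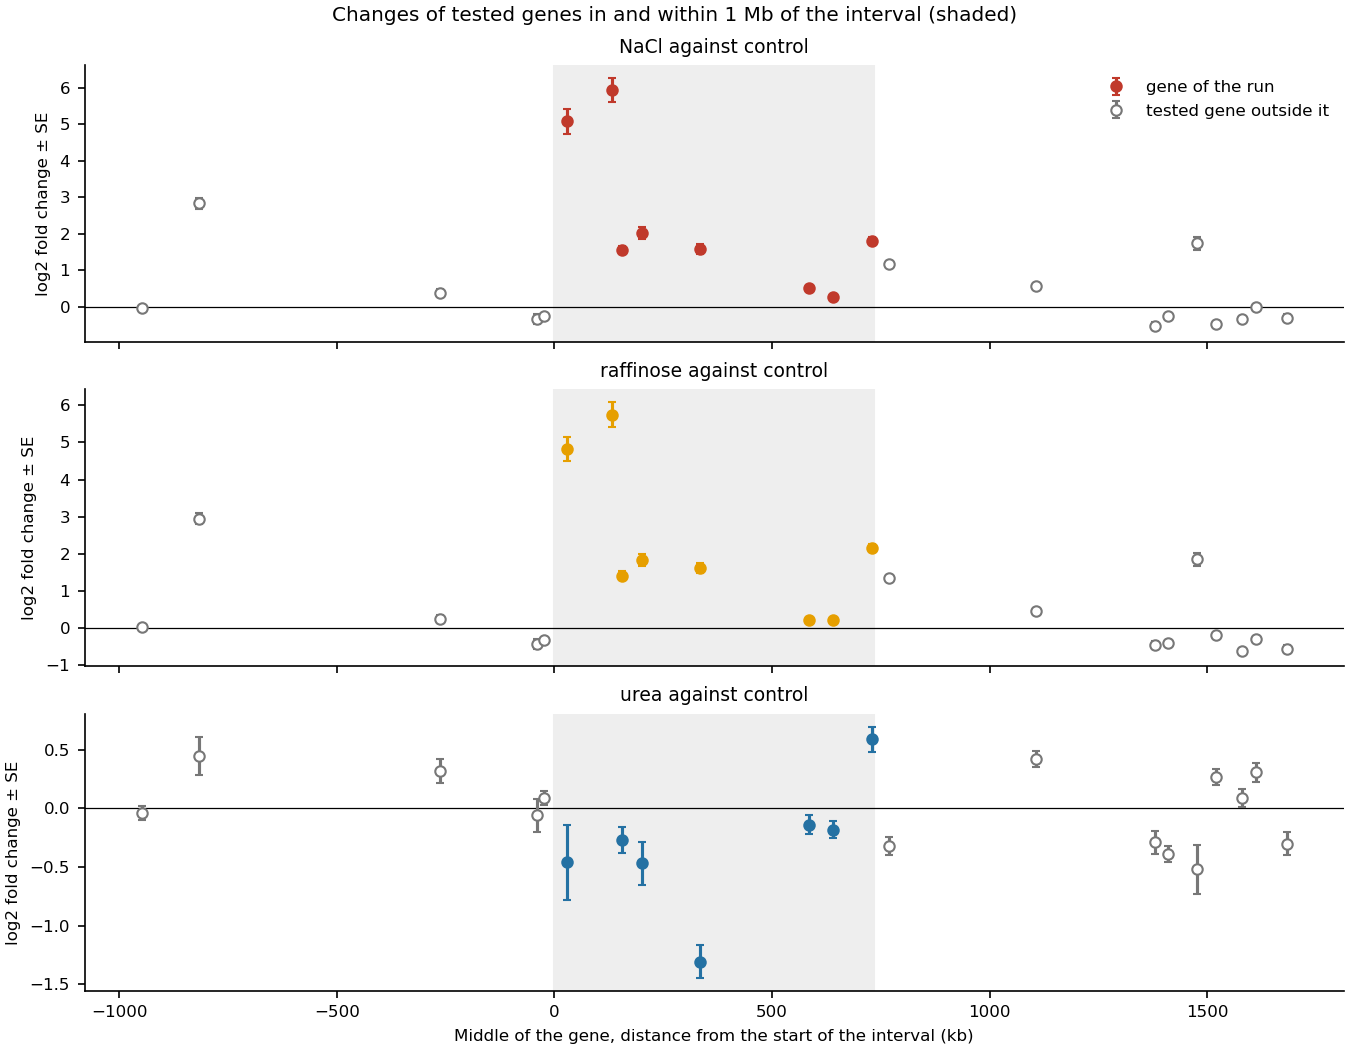
Points are log2 fold changes against control with SE bars for NaCl, raffinose and urea, plotted by distance in kb from the start of the stretch; filled points are its genes, open points the tested genes within 1 Mb on either side, and the shading marks the stretch. NaCl and raffinose show the same shape, from at least 4.83 in the 2 genes at the left end to 0.50 or less at ENSCAFG00000013958 and ENSCAFG00000013972 and back to 1.81 and 2.15 at the right end. The vertical scales differ, and ENSCAFG00000036663 is not drawn for urea because it had 0 reads there. Its SE bars for NaCl and raffinose rest on 7 control reads and are not a reliable measure of error.

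The limits are the start of the first member and the end of the last, and they come from the selection. A change of direction at a limit is therefore not a separate result. The left limit fell between genes of opposite direction. ENSCAFG00000032146, the nearest tested gene outside it, ends 17 kb before the stretch begins and was lower after NaCl (-0.27 ± 0.06) and raffinose (-0.34 ± 0.06), from 46.2 ± 4.0 CPM in control to 38.4 ± 3.5 and 36.5 ± 3.6. The right limit was less sharp. ENSCAFG00000013986, 16.8 kb beyond it (57481005 to 57512674, plus strand), is not a member but also stood higher with NaCl and raffinose, by 1.17 ± 0.08 and 1.35 ± 0.08 on the log2 scale, from a mean of 7.85 ± 1.09 CPM in control. With urea it fell by 0.32 ± 0.08 (edgeR adjusted p = 0.00103). Within 1 Mb to the left, 2 of 5 tested genes had a log2 fold change above 0 for NaCl and 3 of 5 for raffinose. To the right it was 3 of 9 for each. Of all tested genes, 48.5% were above 0 for NaCl and 49% for raffinose. Apart from ENSCAFG00000013986, at least 2-fold higher levels after NaCl and raffinose were seen there in ENSCAFG00000013759 (2.83 and 2.94, 814 kb to the left) and ENSCAFG00000014148 (1.74 and 1.85, 725 kb to the right). Those 2 genes were picked out after their values had been seen.

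Between the members, 3 annotated genes of the stretch stayed under the minimum of 1 CPM. The highest of them, ENSCAFG00000029201 (57405511 to 57406317, 1 exon), had 0.294 ± 0.250 CPM in control, 0.211 ± 0.113 with NaCl, 0.148 ± 0.110 with raffinose and 0.211 ± 0.196 with urea, a total of 41, 28, 18 and 30 reads. The lowest member by this measure was ENSCAFG00000036663, at 3.755 CPM in the NaCl group. The other two genes under the minimum had between 0 and 4 reads per group.

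To rank the levels of different genes, they were divided by exon length. On that scale, in CPM per kb of exon, ENSCAFG00000029013 had the highest mean of the 8 in every group: 74.1 ± 16.5 in control, 215.0 ± 22.6 with NaCl, 197.5 ± 28.7 with raffinose and 61.4 ± 16.5 with urea. ENSCAFG00000013863 was the sixth in control (3.43 ± 3.71) and the fifth after urea (2.52 ± 1.89), within 1 SD of ENSCAFG00000030460 (3.08 ± 0.94 and 2.20 ± 0.72), and the second after NaCl (118.0 ± 30.6) and raffinose (99.5 ± 42.5). The 8 genes together held 298.3 ± 45 CPM in control, 1178 ± 161 with NaCl, 1075 ± 206 with raffinose and 265.2 ± 37.9 with urea (SD, n = 12 each). ENSCAFG00000013863 made up 4.65 ± 3.78% of that sum in control and 3.99 ± 2.27% after urea, against 44.1 ± 6.1% after NaCl and 40.1 ± 7.8% after raffinose. The sum and these shares use CPM not divided by exon length, and ENSCAFG00000013863 has the most exon bases of the 8 (4464). In such bulk RNA, more cells that use a gene and more RNA per cell cannot be told apart.

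Urea against control shares the control libraries with the comparisons that define the stretch. The stretch was labelled as raised by NaCl and raffinose, and another as raised by every solute. Its urea levels may therefore have entered the choice, and the calls below are not independent of it. In edgeR's quasi-likelihood test with Benjamini-Hochberg adjustment over all tested genes, 5 of the 8 genes fell after urea and 1 rose, where 24.9% and 27.4% of all tested genes fell and rose. Over all tested genes 52.3% of the urea calls were rises, and 40.1% with library totals only. Apart from ENSCAFG00000036663, which had 0 urea reads, the fall with the greatest log2 size was in ENSCAFG00000013922, by 1.31 ± 0.14 on the log2 scale (edgeR adjusted p = 6.76e-11, lower at all 12 passages). The rise was in ENSCAFG00000013979, by 0.59 ± 0.11 (edgeR adjusted p = 9.29e-06, higher at all 12 passages). These 2 calls held in each fit that left out a passage. In neither gene, nor in any other of the 8, were the control and urea libraries fully apart, as they were in 4.37% of tested genes with urea lower and 4.68% with urea higher.

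The other urea calls rest on smaller differences or few reads. ENSCAFG00000029013 fell by 0.27 ± 0.11 (edgeR adjusted p = 0.0338, lower at 11 of 12 passages), ENSCAFG00000030460 by 0.47 ± 0.18 (edgeR adjusted p = 0.0221, lower at 10 of 12) and ENSCAFG00000013972 by 0.18 ± 0.07 (edgeR adjusted p = 0.0224, lower at 8 of 12). The first of these calls was lost in each of 7 fits that left out a single passage (4, 5, 7, 8, 10, 13 or 14, adjusted p from 0.0507 to 0.0705), the second without passage 4, 7 or 16 (0.0559 to 0.0583) and the third without passage 14 or 19 (0.0574 and 0.0687). The call of ENSCAFG00000036663 (edgeR adjusted p = 0.011) rests on 7 control reads against 0 urea reads, and DESeq2 gave it an adjusted p of 0.114. With the urea count put at its limit of 3 reads over the group, the level was 2.13-fold lower. That value takes the 7 control reads as exact, so it is not a lower bound. ENSCAFG00000013863 (-0.46, 95% interval -1.09 to 0.17, adjusted p = 0.224) and ENSCAFG00000013958 (-0.14, -0.30 to 0.02, adjusted p = 0.131) did not pass in edgeR. With library totals only, ENSCAFG00000013958 was called lower too (-0.22, edgeR adjusted p = 0.0356), which made 6 members lower. The median over the members was -0.36, against 0.02 over all tested genes.

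**Figure D3:**
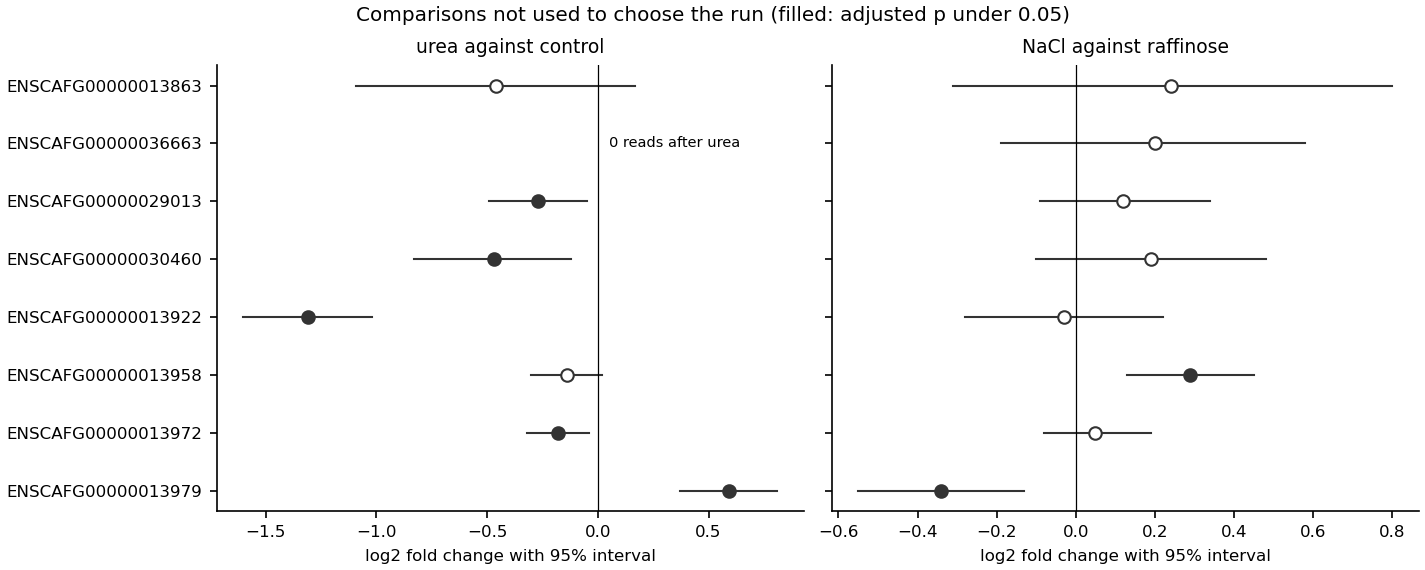
Points are log2 fold changes of the 8 genes with 95% intervals for urea against control (left) and NaCl against raffinose (right); filled points had an adjusted p under 0.05. On the left, ENSCAFG00000013922 at -1.31 and ENSCAFG00000013979 at 0.59 stand farthest from 0, and ENSCAFG00000036663 is not drawn because it had 0 reads after urea. On the right all 8 points lie between -0.34 and 0.29. The title calls these comparisons not used to choose the run. Both share libraries with those that were used, so neither is independent of the choice.

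NaCl and raffinose, which bring the medium to the same osmolality, were next compared directly. The stretch was selected as higher after both, so the nearness of their values is not read as a separate result. Of the 8 genes, 1 was higher after NaCl and 1 higher after raffinose in edgeR's test, where 7.42% and 7.97% of all tested genes were. Over all tested genes 48.2% of these calls were higher after NaCl, and 71.1% with library totals only. A fit with passage as a block called 3595 genes in place of 1948, with the same 2 members among them. ENSCAFG00000013958 was higher after NaCl by 0.29 ± 0.08 (edgeR adjusted p = 0.00798, higher at 10 of 12 passages). ENSCAFG00000013979 was higher after raffinose, with a difference of -0.34 ± 0.10 (edgeR adjusted p = 0.0192, higher after raffinose at 8 of 12 passages), and this call was lost without passage 11, 14 or 19 (adjusted p from 0.052 to 0.0599) and with library totals alone (0.0576). For the other 6 genes the differences ran from -0.03 to 0.24. Their 95% intervals were narrowest for ENSCAFG00000013972 (-0.08 to 0.19) and widest for ENSCAFG00000013863 (-0.31 to 0.80). The latter gene was higher after NaCl at 9 of 12 passages, and a fit with passage as a block gave it 0.32 (edgeR adjusted p = 0.0949).

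The libraries of a passage differed from those of others most clearly in ENSCAFG00000013863. Its spread between libraries of a group, a biological coefficient of variation of 50.4%, was wider than that of 98.9% of tested genes, whose median was 15.3%. At passage 17 it had the highest value of each group: 65.4 CPM in control, 829.1 with NaCl, 990.3 with raffinose and 35.4 with urea. Passage 1 had the lowest value in control (3.13) and urea (3.91), whereas passage 5 had the lowest after NaCl (279.2) and raffinose (324.2). Without passage 17 the means were 10.7 ± 5.3, 499.3 ± 102.8, 394.6 ± 84.4 and 9.04 ± 3.76 CPM for control, NaCl, raffinose and urea (SD, n = 11 each). ENSCAFG00000029013 was also highest at passage 17 in control (198.1 CPM) and urea (162.6), but at passage 13 after NaCl (442.1) and raffinose (443.5).

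A linear trend with the passage number was fitted over all 48 libraries. In edgeR's test 2 of the 8 genes rose with passage and 0 fell (1 of the 8 had a falling slope at an unadjusted p under 0.05), where 7.99% and 8.2% of all tested genes rose and fell. The slopes were 0.66 ± 0.17 log2 units per 10 passages in ENSCAFG00000013863 (edgeR adjusted p = 0.00478) and 0.23 ± 0.07 in ENSCAFG00000029013 (edgeR adjusted p = 0.0145). Both calls depended on single passages. Without passage 17 the slopes were 0.24 (adjusted p = 0.201) and 0.16 (adjusted p = 0.0779), and without passage 1 that of ENSCAFG00000029013 was 0.14 (adjusted p = 0.2). With the 4 libraries of a passage averaged, which leaves 12 values, neither passed in limma (adjusted p = 0.278 and 0.259).

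**Figure D4:**
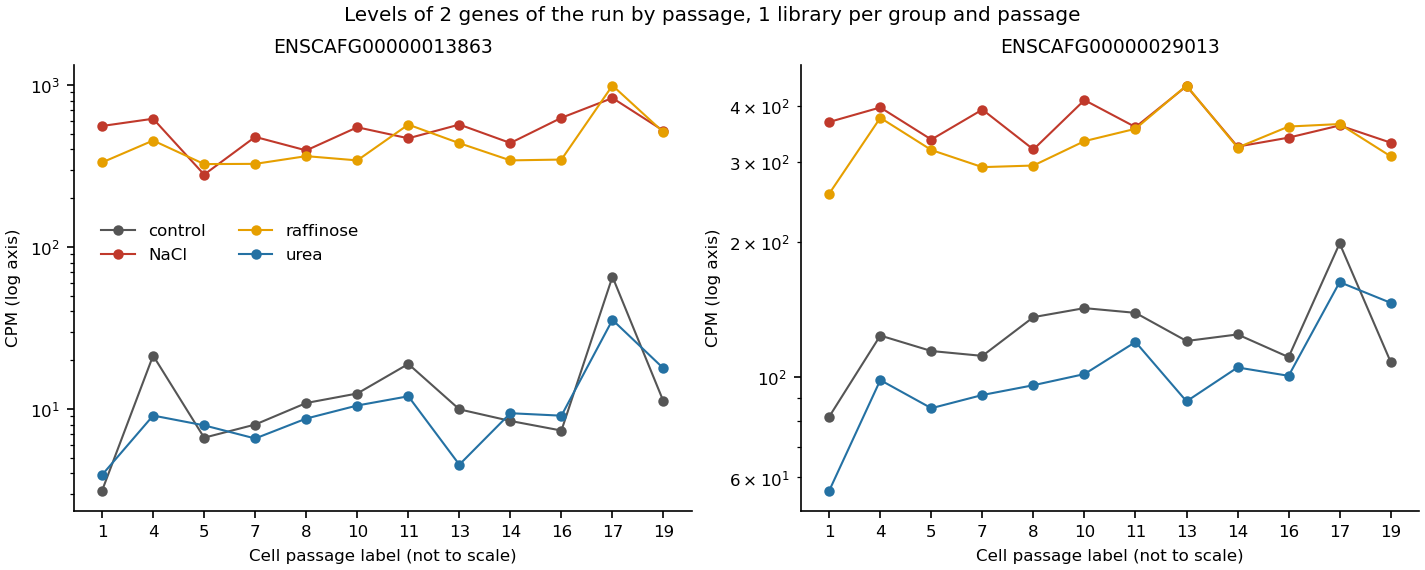
Lines join the CPM values (log axis) of ENSCAFG00000013863 (left) and ENSCAFG00000029013 (right) over the 12 passage labels, with 1 library per group and passage. In the left panel all 4 lines are highest at passage 17; in the right panel only control and urea are.

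Whether the members vary together within a group was described after group means had been removed. Over the 48 libraries the 7 pairs of neighbouring members had a median correlation of -0.02 (from -0.34 to 0.18), against 0.10 for all 12562 pairs of neighbouring tested genes. The libraries of a passage are not independent, so the deviations were averaged over the 4 libraries of each passage, a step added after the data had been seen; the passages follow one another in 1 line. Over those 12 values, 1 of the 28 pairs of members passed after adjustment over the 28 (Pearson). That pair was ENSCAFG00000013863 and ENSCAFG00000029013, with r = 0.865 (two-sided permutation p = 0.00087, adjusted p = 0.0244) and Spearman's rho = 0.811 (permutation p = 0.00196, adjusted p = 0.0549). The permutations take the 12 passages as exchangeable, with no trend with passage removed. These were also the 2 members called as rising with passage, and the part of such a trend in r was not tested. Without passages 17 and 1, the 2 farthest from the median, r was 0.711. Within single groups of 12 libraries the correlation of this pair was 0.906 in control, 0.924 after urea, 0.401 after NaCl and 0.417 after raffinose; the difference between groups was not tested. Of the 28 pairs, 4 had an unadjusted permutation p under 0.05. Besides this pair they were ENSCAFG00000013958 with ENSCAFG00000013979 (r = 0.727, adjusted p = 0.124) and ENSCAFG00000013922 with ENSCAFG00000013958 (-0.654, 0.208) and with ENSCAFG00000013979 (-0.594, 0.271). ENSCAFG00000036663, which lies between the genes of the first pair, had r = 0.479 with ENSCAFG00000013863 (permutation p = 0.115, adjusted p = 0.537) and rho = 0.608 (permutation p = 0.0393, adjusted p = 0.366). Without passages 17 and 1, r was 0.816. Its deviations come mostly from the NaCl and raffinose libraries, as it had 0 urea reads and 7 control reads.

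**Figure D5:**
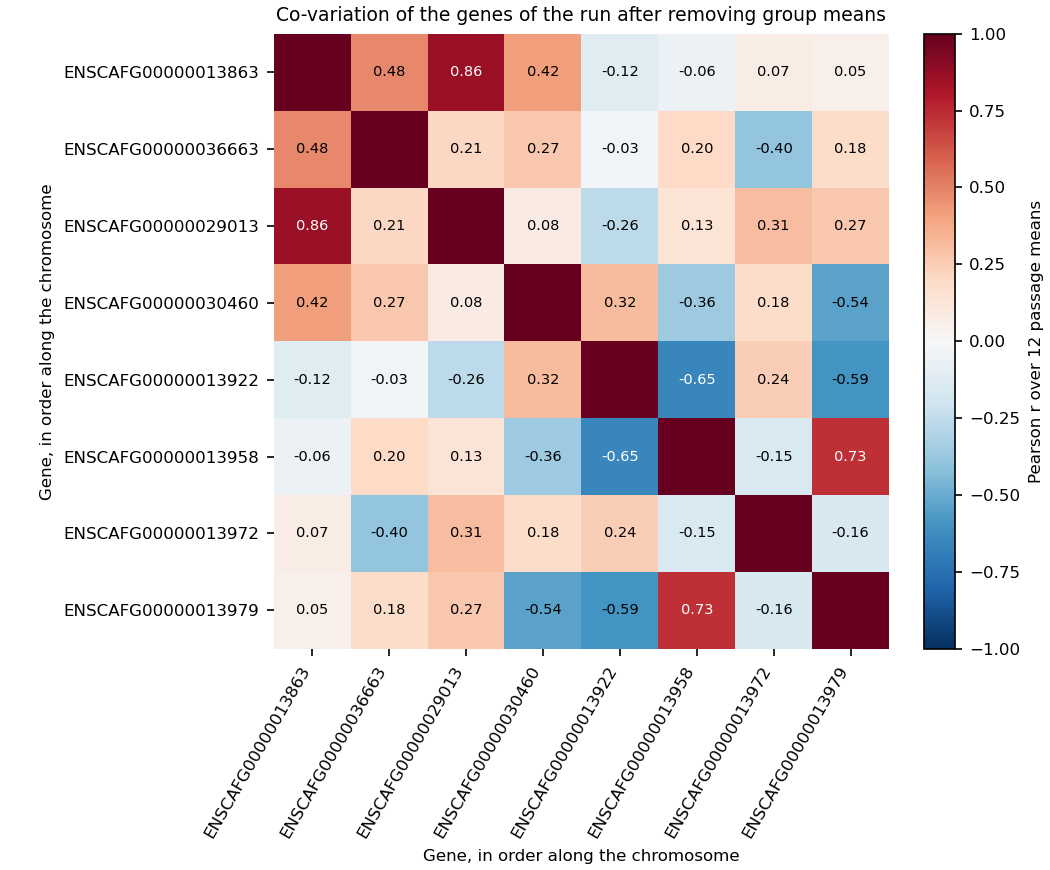
Each square gives Pearson's r between 2 genes of the run over 12 passage means, after group means had been removed, with the genes in order along the chromosome. The deepest red square off the diagonal joins ENSCAFG00000013863 and ENSCAFG00000029013 (0.865), and squares next to the diagonal are mostly pale.

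Across the 48 libraries with group means left in, each member was also set against the mean log2 CPM of the other 7. The correlation ran from 0.974 in ENSCAFG00000013863 and ENSCAFG00000036663 down to 0.695 in ENSCAFG00000013958 and 0.688 in ENSCAFG00000013972, and it largely repeats the difference between the solutes. Of 10130 tested genes elsewhere with a mean of at least 5 CPM, 589 (5.81%) had r over 0.9 with the mean of the 8 members. The 3 most alike were ENSCAFG00000019020 on chromosome X (109694688 to 109799110, r = 0.991), ENSCAFG00000009113 on chromosome 2 (59602961 to 59604676, r = 0.988) and ENSCAFG00000011015 on chromosome 37 (9425885 to 9564030, r = 0.987). ENSCAFG00000019020 had 123 ± 13.6 CPM in control, 1390 ± 152 with NaCl, 1440 ± 167 with raffinose and 76.2 ± 7.3 with urea. With group means removed, the correlations of the 3 with the members' mean were 0.435, 0.633 and 0.174. In that mean ENSCAFG00000013863 had the widest spread (biological coefficient of variation 50.4%), and its part in these correlations was not tested.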

How the data were processed

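Poly A RNA of 48 libraries was sequenced, and the deposited values are whole read counts for each annotated gene. The tools named in the submitters' processing notes are CASAVA, featureCounts (1.5.1) and HISAT2 (2.0.5). Exon reads were summed by gene with strand ignored, using Ensembl 87 gene models of CanFam3.1, per the file headers. How multi-mapping reads were handled is not given in the sources used here, and whether members have near-identical copies was not tested. The table has 0 unused columns of values. The 4 columns of passage 10 carry an added number that the labels do not explain and were matched by passage.

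Groups came from the sample titles. Genes kept by filterByExpr were scaled by TMM factors. They were fitted with edgeR 4.0.16 (R 4.3.3, glmQLFit and glmQLFTest) over all libraries with a term for group. P-values were adjusted over all 12654 tested genes by Benjamini-Hochberg, with a threshold of 0.05. The fit was also run on simulated independent counts with no passage effect, which cannot check p-values for libraries paired by passage. CPM uses TMM-scaled totals, and log2 CPM for correlations has a prior count of 2. Each log2 fold change was divided by the root of its F statistic to give the SE. This SE is not reliable for a gene that is close to 0 reads in a group. Permutation tests drew 100000 resamples. Alternatives used DESeq2 1.42.0 and limma 3.58.1.

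The members, lists and tests were chosen with earlier results of these data known. Besides the members, the genes named by rule are the nearest tested gene on each side, the highest gene of the stretch under the CPM minimum, and the 3 genes elsewhere most correlated with the members' mean; 2 further genes within 1 Mb were named after their values had been seen. No identifier could be paired with a symbol (0 of 32704; the name table is of assembly UU_Cfam_GSD_1.0), so kidney epithelial markers and the prepared tonicity list were not checked, and no sequences are shown. The labels give the same passage numbers to all groups, which pairs the libraries: once group means were removed, correlation averaged 0.306 over the 72 same-passage pairs (66 over 0.1), against -0.0276 for the 792 other pairs. The 264 library pairs within groups all differed beyond sampling noise (lowest chi-square per gene 5.26).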

Additional observations from a re-analysis of the deposited data

How the results depend on the processing

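The 8 members kept a log2 fold change above 0 against control, for NaCl and for raffinose, under RLE size factors, DESeq2, the passage block and each passage left out. With library totals only, raffinose gave -0.02 in ENSCAFG00000013958 and -0.03 in ENSCAFG00000013972, and NaCl against raffinose turned to 0.03 in ENSCAFG00000013922, a value that was not called. With cell passage as a replicate block, 5 members were called lower and 1 higher for urea, as without it, and 1 higher and 1 lower for NaCl against raffinose; the block changed no call of a member. For urea against control, glmTreat against a fold of 1.5 called 0 members higher (0 at an unadjusted p under 0.05) and 1 lower, and a fit of only these 2 groups called 3 lower of 7 tested. DESeq2 called 1 higher and 4 lower. Leaving out a passage gave 3 to 5 lower. For NaCl against raffinose, library totals called 0 members lower (1 at an unadjusted p under 0.05) and glmTreat 0 higher and 0 lower (0 and 0 unadjusted), while DESeq2 called 1 and 1; leaving out a passage gave 0 to 1 lower, and from -0.06 to 0 in ENSCAFG00000013922. For the passage trend, limma on 12 passage means called 0 rising (2 at an unadjusted p under 0.05), and leaving out a passage gave 0 to 2 rising. The uncalled slopes of ENSCAFG00000030460 (-0.05 to 0.07), ENSCAFG00000013972 (-0.09 to 0.06) and ENSCAFG00000013979 (-0.04 to 0.07) changed sign there. The cause of these changes was not tested. The 2 fits chosen after seeing the data left out the shallowest library (urea, passage 8) or control at passage 4 with urea at passage 5; the first changed no count of calls, and the second left 4 members called lower for urea. With a mean of at least 5 CPM required, ENSCAFG00000036663 was not tested.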
